A study of Mus musculus with 12 samples.

Results

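Myeloid cell genes were examined in RNA from sorted natural killer (NK) cells: 43 genes of neutrophils, monocytes, macrophages and dendritic cells, out of 56748 gene identifiers in the count files. The genes were taken by name from a list and matched by Ensembl identifier; the rule itself uses no measured value, but the list was drawn up with earlier results of these data known. By role they were 9 neutrophil genes, 21 macrophage and monocyte genes, 8 dendritic cell genes, and 5 receptor subunits and transcription factors shared by myeloid lineages. All 43 were matched, and each was counted in at least 1 library.

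The NK cells came from mouse lymph nodes in 3 groups of 4 libraries. The first group was tumor-free C57BL/6J mice, and the others bore diffuse large B cell lymphoma, a tumor of mature B cells, in a model that spreads through the lymphatic system (lymphatic) or through blood vessels (hematogenous). In the tumor-bearing groups the node itself carried tumor. The labels do not give the tumor cells, the time of sampling, the age or sex of the mice or the markers of the sorting gate, and they do not state that each library came from a separate animal. P-values therefore measure the spread between these libraries, which may be technical.

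Neutrophils, monocytes, macrophages and dendritic cells arise from marrow progenitors under the transcription factors PU.1 and the C/EBP family, and they depend on colony-stimulating factors and their receptors. In a lymph node, macrophages line the sinuses and capture particles from lymph, dendritic cells present antigen to T cells, and monocytes and neutrophils enter from blood during inflammation. NK cells are lymphocytes that share some surface and lysosomal genes with myeloid cells, among them Itgax and Ctsd. In bulk RNA from a sorted population, a change in the number of cells of a type and a change in RNA per cell cannot be told apart.

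Library depth ranged from 6654215 to 43494812 gene counts, and tumor-free replicates 1, 2 and 4 were at or below 8355021. At that depth 3 counts correspond to 0.359 to 0.451 CPM in those libraries (counts divided by gene counts and multiplied by 1000000), so a count of 0 there allows a level of up to that size, for counting error only. NK identity genes were high throughout: the receptor gene Ncr1 was at 1265 to 1463 CPM (here and below scaled between libraries by TMM) in tumor-free, 933 to 1188 in lymphatic and 552 to 863 in hematogenous libraries. The summed level of 12 NK identity genes was 14354 to 16342 CPM in tumor-free, 13247 to 16193 in lymphatic and 9712 to 11320 in hematogenous libraries. Genes of other cells also differed between the groups: 11 T cell genes summed to 293 to 494, 336 to 554 and 551 to 736 CPM, 11 B cell genes to 29.3 to 143, 101 to 333 and 94.1 to 168 CPM, and 9 erythroid and platelet genes to 0 to 17.0, 16.6 to 40.8 and 19.0 to 67.2 CPM, in that order of groups. Their part in the results on myeloid genes was not tested.

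Most of the called differences in myeloid genes were higher levels in the hematogenous model. Genes of neutrophils and monocytes (Csf3r, S100a8, S100a9, Il1b, Vcan) and receptors for colony-stimulating factors (Csf1r, Csf2rb, Csf2rb2) were higher there than in tumor-free nodes. So were the macrophage and monocyte genes Cd68, Clec4a3, Adgre1, Mpeg1, Cd14 and Lrp1. The macrophage list was thus mixed: Cd209b, Pla2g2d and Apoe, genes of resident lymph node macrophages, and the lysosomal Ctsd were lower, while Marco, C1qa, C1qb and C1qc were not called. Hdc, Mmp9 and Cxcr2 of the neutrophil list and the receptor gene Csf2ra were not called either. S100a8 and S100a9 had no count in hematogenous replicate 1, and neither DESeq2 nor voom called them against tumor free. In the lymphatic model a smaller number rose: Cd68, Clec4a3, Csf2rb and Csf2rb2.

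A group of 5 of the 43 genes made up most of the counts. Itgax, Ctsd, Ly6c2, Lyz2 and Tcf4 averaged at least 50 CPM over the 12 libraries and held 82.7% to 95.3% of the members' counts in each library. Per kilobase of exon, Ctsd averaged 276 CPM, Itgax 193, Ly6c2 75.1 and Lyz2 64.7, followed by Spp1 at 11.1 and Apoe at 9.92. On that scale 20 of the 43 genes averaged under 1 CPM per kilobase, and the lowest was Clec9a at 0.0831. The other 38 genes together summed to 104 to 153 CPM in tumor-free, 123 to 259 in lymphatic and 129 to 293 in hematogenous libraries. The hematogenous sum was 129 CPM in replicate 1, and 274, 206 and 293 CPM in replicates 2 to 4. Hematogenous replicate 1 thus lay inside the tumor-free range, and the other hematogenous libraries lay above it.

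How many of the genes were counted at all also differed. In tumor-free replicates 1 to 4, 25, 20, 36 and 25 of the 43 genes had at least 1 count, against 39, 39, 35 and 41 in the lymphatic and 27, 38, 41 and 43 in the hematogenous libraries. Over all genes the numbers were 14850, 14168, 22161 and 14581 in tumor-free, 25334, 22047, 19261 and 21875 in lymphatic and 17053, 20077, 21958 and 22363 in hematogenous libraries. Tumor-free replicate 3 was thus the highest and hematogenous replicate 1 the lowest of its group over all genes too, so this trait was not particular to the members. With every library thinned to 6654215 gene counts, the numbers were 25, 20, 35 and 25 in tumor-free, 34, 35, 33 and 37 in lymphatic and 27, 37, 41 and 42 in hematogenous libraries. Tumor-free replicate 3 therefore kept a high number at equal depth. The number over all genes at equal depth was not determined, so whether this held for the members alone is not known. Of 13 genes with no count in tumor-free replicates 1, 2 and 4, 6 were counted in tumor-free replicate 3. No count of Il1b, Retnlg, Trem1, Clec4a3, Cd14, Clec9a or Csf2rb2 was present in any tumor-free library. Hematogenous replicate 1 had no count for 16 members, and 12 of these were counted in all the other hematogenous libraries.

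**Figure D1:**
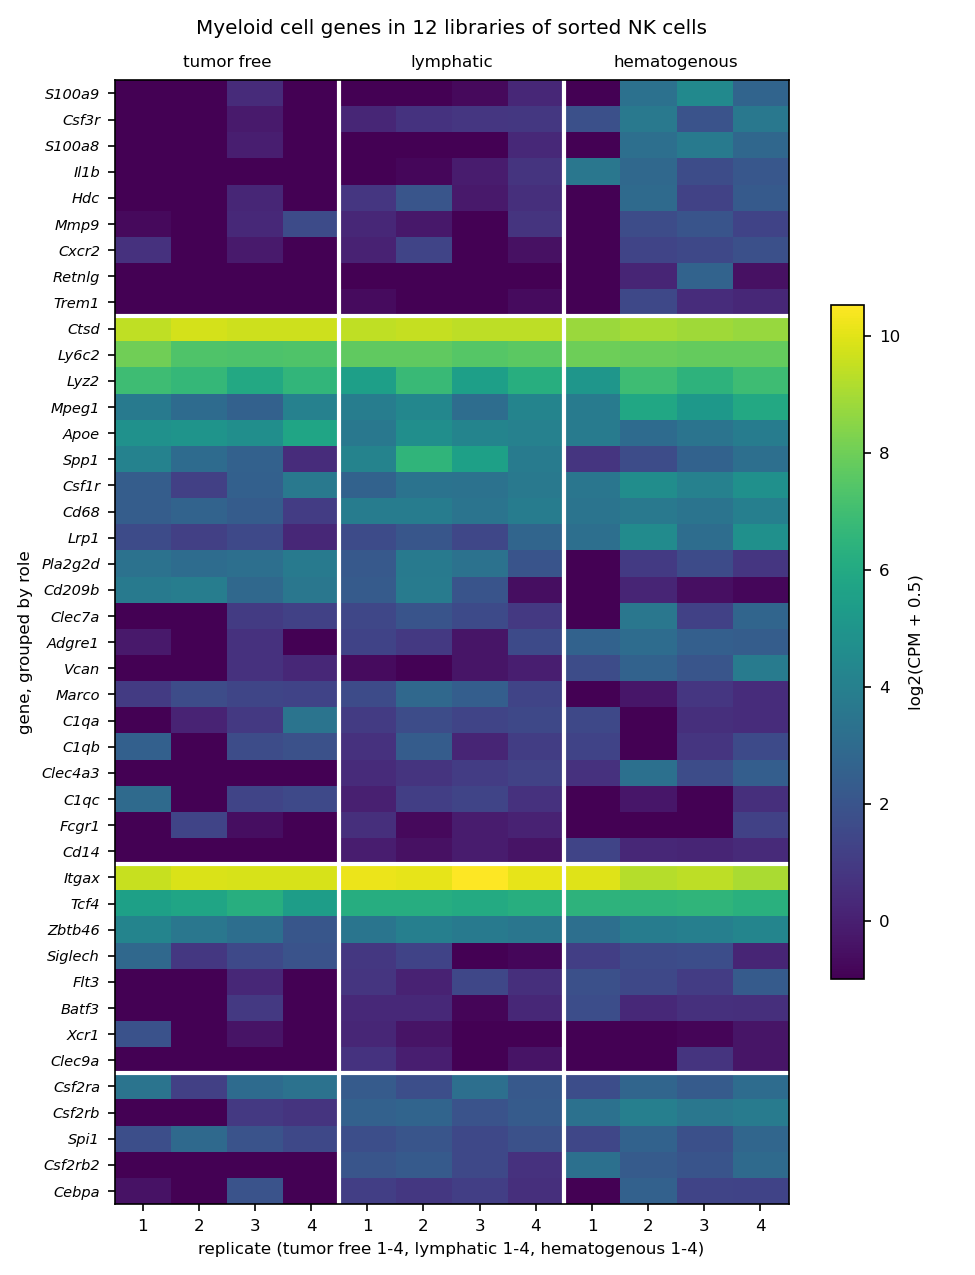
Level of each of the 43 myeloid cell genes (rows, grouped by role and ordered by mean level) in each of the 12 libraries (columns, replicates 1 to 4 of each group), as log2(CPM + 0.5) on the color scale. The 5 abundant genes stand out in every library, and the neutrophil rows are brightest in the hematogenous libraries, where replicate 1 has no count for 16 members.

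Differences were tested across all 16016 genes that passed a filter on low counts, with edgeR's quasi-likelihood test on all 12 libraries and Benjamini-Hochberg adjustment, and a gene was called at an adjusted p under 0.05. Of the 43 members 38 passed the filter, and Retnlg, Trem1, Fcgr1, Xcr1 and Clec9a did not. Between lymphatic and tumor-free libraries 4 members were higher and 0 lower, where 2.74% of all tested genes were called, 2.32% in the higher and 0.418% in the lower direction. The edgeR test gave 12 higher and 1 lower member at an unadjusted p under 0.05, DESeq2 called 5 higher and 1 lower, and limma's voom with quality weights called 2 higher and 1 lower. The shares above are of adjusted edgeR calls, so the unadjusted, DESeq2 and voom numbers cannot be set beside them. Without tumor-free replicate 3 the number of adjusted edgeR calls was 7, and without lymphatic replicate 1 or 4 it was 2.

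Between hematogenous and tumor-free libraries 16 members were higher and 4 lower, where 16.4% of all tested genes were called, 9.52% in the higher and 6.87% in the lower direction. That number stayed between 17 and 23 when any single library was left out, and was 22 without hematogenous replicate 1. The comparison of the tumor models with each other called 7 members higher and 5 lower in hematogenous libraries, where 8.85% of all tested genes were called, 2.93% higher and 5.92% lower. Leaving out a library lowered that number of 12 to 7 (lymphatic replicate 1), 4 (lymphatic replicate 2), 5 (lymphatic replicate 3), 5 (hematogenous replicate 2), 7 (hematogenous replicate 3) or 6 (hematogenous replicate 4). Over all tested genes it lowered the 1417 calls to 620 (lymphatic replicate 2 or hematogenous replicate 3) or 811 (hematogenous replicate 1).

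Without regard to the test, the lymphatic libraries lay wholly above the tumor-free ones for 7 of the tested members and wholly below for 1, where 7.66% and 2.24% of all tested genes did so. Hematogenous libraries lay wholly above the tumor-free ones for 12 and wholly below for 5 (11.5% and 8.01% of all tested genes), and wholly above the lymphatic ones for 10 and wholly below for 5 (9.17% and 11.3%).

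The median log2 fold change of the 38 tested members was 0.50 for lymphatic against tumor free, 1.40 for hematogenous against tumor free and 1.04 for hematogenous against lymphatic, beside 0.08, 0.08 and -0.01 over all tested genes. Setting the members with no tumor-free count at their lower bound left these medians as they were. It could not have moved them, because the fitted values and the bounds of those members both lie above the median. A gene that passed the filter only through the group where it is high had to differ, so these medians describe the tested genes alone. The same limit holds throughout for the numbers of called genes and for the adjusted p of such genes, on the wider lists too. The comparisons with tumor-free libraries share those 4 libraries. By role, the hematogenous libraries had higher levels of 4 of 7 tested neutrophil genes, 8 of 20 macrophage and monocyte genes, 2 of 6 dendritic cell genes and 2 of 5 shared receptors and factors than the tumor-free ones, and all 4 lower genes were on the macrophage and monocyte list. Over all tested genes 9.52% were called higher and 6.87% lower there.

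**Figure D2:**
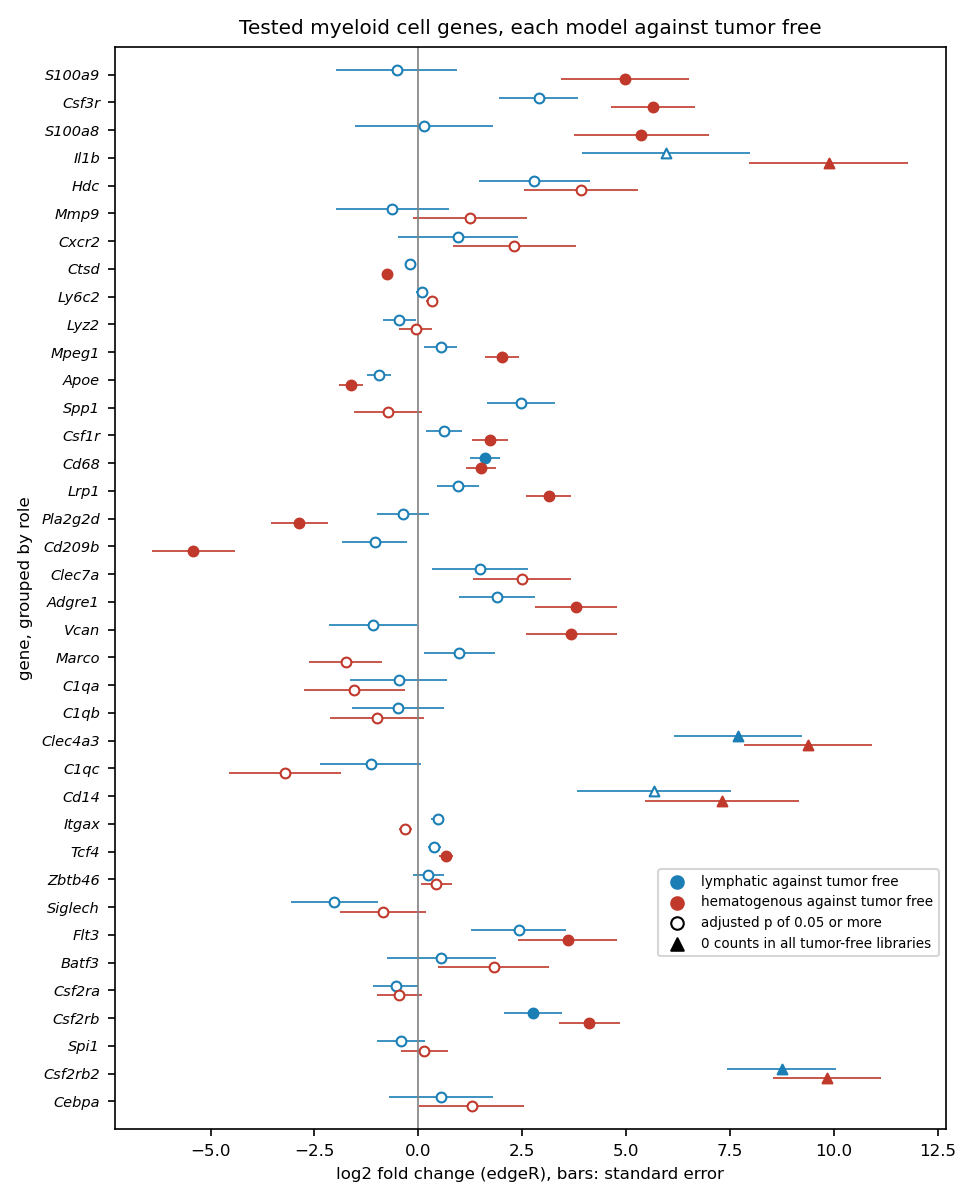
The log2 fold change of the 38 tested members against tumor free (x axis; rows are genes grouped by role) in the lymphatic (blue) and hematogenous (red) model, with standard errors as bars. Filled symbols passed the adjusted p of 0.05, and triangles mark genes with no tumor-free count, whose fitted values depend on the prior count and give no bound. The filled red symbols are 16 higher and 4 lower, and the filled blue ones 4 higher.

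Among the neutrophil genes, Csf3r, the receptor for granulocyte colony-stimulating factor, separated all 3 groups. Its level was 0, 0, 0.383 and 0 CPM in tumor-free replicates 1 to 4, 0.685, 1.12, 1.3 and 1.35 CPM in lymphatic and 3.02, 12.1, 3.36 and 11.6 CPM in hematogenous replicates 1 to 4. The hematogenous libraries did not overlap with either other group, and the lymphatic ones lay above the tumor-free ones. The log2 fold change was 5.65 (SE 1.01, adjusted p = 0.00101) against tumor free in edgeR's quasi-likelihood test, 2.76 (SE 0.827, adjusted p = 0.0419) against lymphatic, and 2.90 (SE 0.944, adjusted p = 0.125) for lymphatic against tumor free, which was not called. The call against tumor free passed with every library left out in turn. That against lymphatic was lost, with the edgeR adjusted p in parentheses, without any one of lymphatic replicate 1 (0.121), 2 (0.131), 3 (0.0814) and 4 (0.098), hematogenous replicate 2 (0.152), 3 (0.0661) and 4 (0.146), and at equal depth (0.155).

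S100a8 and S100a9 encode the subunits of calprotectin, a calcium-binding protein that fills the neutrophil cytoplasm. S100a8 was at 0, 0, 0.469 and 0 CPM in tumor-free, 0, 0, 0 and 0.759 in lymphatic and 0, 8.68, 13.1 and 6.79 in hematogenous replicates 1 to 4. S100a9 was at 0, 0, 0.852 and 0 CPM in tumor-free, 0, 0, 0.118 and 0.717 in lymphatic and 0, 9.44, 21.3 and 5.99 in hematogenous replicates. Both genes were high in hematogenous replicates 2 to 4 and had no count in replicate 1, so the hematogenous range overlapped with the other groups. For S100a8 the log2 fold change was 5.37 (SE 1.62, adjusted p = 0.0285) against tumor free in edgeR and 5.24 (SE 1.56, adjusted p = 0.041) against lymphatic. For S100a9 it was 4.97 (SE 1.55, adjusted p = 0.0351) and 5.50 (SE 1.56, adjusted p = 0.0346).

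The calprotectin calls rested on few libraries. Against tumor free, the edgeR adjusted p for S100a8 was over 0.05 without any one of tumor-free replicate 1 (0.0681), 2 (0.0781) and 4 (0.072), hematogenous replicate 2 (0.0544) and 3 (0.0944), and DESeq2 and voom gave 0.163 and 0.181. For S100a9 the call was lost without any one of tumor-free replicate 1 (0.087), 2 (0.102) and 4 (0.0908), lymphatic replicate 3 (0.0502), hematogenous replicate 2 (0.0521) and 3 (0.131), and DESeq2 and voom gave 0.129 and 0.257. Against lymphatic libraries the S100a8 call was lost without any one of tumor-free replicate 3 (0.0587), lymphatic replicate 1 (0.0956), 2 (0.136) and 3 (0.0928), hematogenous replicate 2 (0.0813), 3 (0.162) and 4 (0.069), and in DESeq2 (0.224). The S100a9 call was lost without any one of lymphatic replicate 1 (0.0863), 2 (0.118) and 3 (0.0952), hematogenous replicate 2 (0.0554) and 3 (0.166), in DESeq2 (0.125) and in voom (0.0665).

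Il1b encodes interleukin-1 beta, an inflammatory cytokine of neutrophils, monocytes and macrophages. It had no count in any tumor-free library and was at 0, 0.082, 0.412 and 1.18 CPM in lymphatic and 11.5, 6.96, 2.66 and 3.87 CPM in hematogenous replicates 1 to 4. Unlike the calprotectin genes it was highest in hematogenous replicate 1, and all 4 hematogenous libraries lay above all others. Against a floor of 3 counts over the 4 tumor-free libraries, Il1b was at least 90.4-fold higher in hematogenous libraries (edgeR adjusted p = 0.00252) and at least 4.84-fold higher in lymphatic ones, which was not called (edgeR adjusted p = 0.155). Hematogenous against lymphatic, the log2 fold change was 3.92 (SE 1.17, adjusted p = 0.0459) in edgeR, and this call was lost without any one of lymphatic replicate 1 (0.0762), 2 (0.156) and 3 (0.0969), hematogenous replicate 1 (0.156), 2 (0.0924), 3 (0.0805) and 4 (0.0652).

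The other neutrophil members were low. Hdc, which makes histamine, ranged over 0 to 0.682 CPM in tumor-free, 0.354 to 3.64 in lymphatic and 0 to 7.42 in hematogenous libraries (edgeR adjusted p = 0.0583 against tumor free). The protease gene Mmp9 was at 0 to 2.59, 0 to 1.18 and 0 to 3.49 CPM and the chemokine receptor gene Cxcr2 at 0 to 1.05, 0 to 2.08 and 0 to 3.07 CPM in the same order. Neither was called in any comparison. Retnlg, a resistin-like secreted factor, was counted in hematogenous replicates 2, 3 and 4 alone, at 0, 0.656, 5.77 and 0.219 CPM in replicates 1 to 4, at least 27.3-fold above the tumor-free floor. Trem1, an activating receptor of neutrophils and monocytes, was at 0.142, 0, 0 and 0.126 CPM in lymphatic and 0, 2.32, 0.888 and 0.731 CPM in hematogenous replicates, at least 17.8-fold above the tumor-free floor in the latter.

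The summed level of the 9 neutrophil members was 1.17, 0, 3.54 and 2.59 CPM in tumor-free, 3.38, 7.24, 2.18 and 6.49 in lymphatic and 14.6, 52.3, 54.7 and 38.6 in hematogenous replicates 1 to 4. Every hematogenous sum lay above every other, with replicate 1 the lowest of them. A wider list of 17 further neutrophil genes summed to 14.4 to 19.4, 14.8 to 28.6 and 17.5 to 183 CPM in the 3 groups. Among these, the genes of late granules were uneven. Camp had no count in any library, Ltf was counted in hematogenous replicate 3 alone, and so was Ly6g, the usual surface marker of mouse neutrophils, at 0 to 0.317 CPM over the hematogenous libraries. Lcn2 was counted in the hematogenous group alone, at 0, 1.36, 0.951 and 3.07 CPM in replicates 1 to 4, Mmp8 was at 0, 0.858, 3.23 and 1.17 CPM there and at most 0.0426 CPM elsewhere, and Ngp ranged over 0 to 1.44, 0 to 0.412 and 0 to 3.55 CPM in the 3 groups. These granule genes did not pass the filter and are named after their values were seen. Of the wider list Fpr2, a formyl peptide receptor, was called: it was at 0, 0, 0 and 0 CPM in tumor-free, 0, 0.437, 0 and 0.169 in lymphatic and 1.04, 2.27, 1.78 and 3.58 in hematogenous replicates (edgeR adjusted p = 0.0135 for hematogenous against tumor free).

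Mpo and Elane encode myeloperoxidase and neutrophil elastase, proteins of primary granules that are made at the promyelocyte stage. They are on the wider list and are named because of their values, which were seen first. Mpo was at 0, 0, 0.554 and 0 CPM in tumor-free, 0.142, 0, 0 and 0 in lymphatic and 0.0945, 94.9, 28.9 and 124 in hematogenous replicates 1 to 4. Elane had no count in the 8 other libraries and was at 0, 30.6, 2.47 and 20.9 CPM in hematogenous replicates 1 to 4, at least 237-fold above the tumor-free and 620-fold above the lymphatic floor of 3 counts. Both were high in hematogenous replicates 2 and 4, lower in replicate 3 and at or near 0 in replicate 1. The filter on low counts kept both out of the test. Without it, the edgeR adjusted p against tumor free was 0.0208 for Mpo and 6.1e-11 for Elane, and DESeq2 gave 0.00226 and 0.0508. Both genes were picked by these same values, so the adjusted p cannot serve as a test of them.

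**Figure D3:**
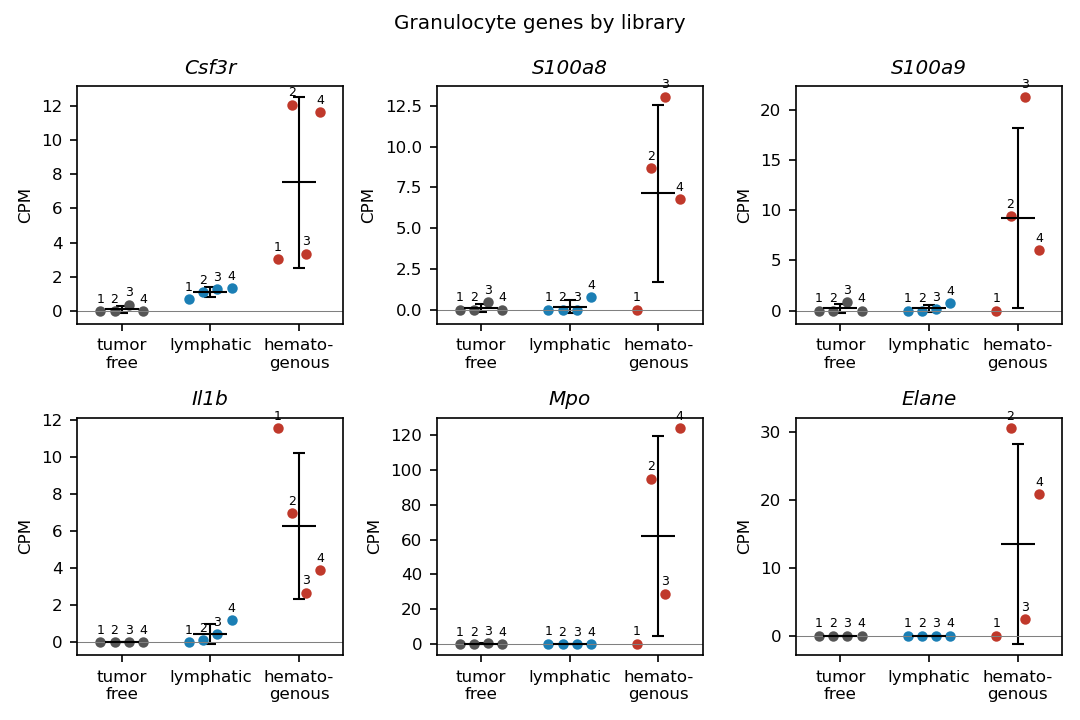
CPM (y axis, linear) of 4 neutrophil members and of Mpo and Elane in each library, with replicate numbers beside the points and bars for the mean and SD of 4 libraries. Csf3r and Il1b lie above the other groups in all 4 hematogenous libraries, whereas S100a8 and S100a9 are high in hematogenous replicates 2 to 4, Mpo and Elane are high in replicates 2 and 4 and lower in replicate 3, and all 4 are at or near 0 in replicate 1.

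The beta chains of receptors for colony-stimulating factors and interleukin-3 rose in both models. Csf2rb2 encodes the mouse beta chain specific to interleukin-3, and Csf2rb the beta chain shared by the receptors for granulocyte-macrophage colony-stimulating factor, interleukin-3 and interleukin-5. Csf2rb2 had no count in the 4 tumor-free libraries and was at 3.64, 4.32, 2.36 and 1.05 CPM in lymphatic and 8.98, 4.49, 3.49 and 7.31 CPM in hematogenous replicates 1 to 4. All 8 libraries of tumor-bearing mice thus lay above all 4 tumor-free ones. It was at least 48-fold higher in lymphatic (edgeR adjusted p = 0.000925) and at least 86.3-fold higher in hematogenous libraries (edgeR adjusted p = 0.000166), and both calls held in every alternative analysis. The models differed by 1.09 (SE 0.681, adjusted p = 0.402) on the log2 scale in edgeR, which was not called.

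Csf2rb was at 0, 0, 1.41 and 1.15 CPM in tumor-free, 5.55, 5.96, 3.3 and 4.38 in lymphatic and 9.45, 15.2, 11.3 and 13.4 in hematogenous replicates 1 to 4, with means of 0.639 ± 0.745, 4.8 ± 1.2 and 12.3 ± 2.5 CPM (SD, n = 4). No group overlapped with another. The log2 fold change in edgeR was 2.76 (SE 0.70, adjusted p = 0.0367) for lymphatic against tumor free, 4.12 (SE 0.729, adjusted p = 0.000967) for hematogenous against tumor free and 1.36 (SE 0.624, adjusted p = 0.208) for hematogenous against lymphatic. The lymphatic call was lost without any one of tumor-free replicate 1 (0.0516) and 2 (0.0527), lymphatic replicate 1 (0.0837), 2 (0.0961) and 4 (0.0798), hematogenous replicate 2 (0.0718), 3 (0.0683) and 4 (0.0677), in voom (0.0676) and with the compared groups alone (0.23). The hematogenous call was lost in no alternative. Csf2rb and Csf2rb2 are neighboring, similar genes: 3.51% of the 120-base windows of Csf2rb exons also occurred in Csf2rb2 and 5.15% the other way, so reads from those windows could not be assigned to 1 gene.

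The alpha chain that binds granulocyte-macrophage colony-stimulating factor, Csf2ra, did not pass the test in any comparison. It was at 10.2, 1.78, 7.71 and 9.79 CPM in tumor-free, 4.42, 2.9, 8.72 and 4.22 in lymphatic and 2.84, 6.26, 4.44 and 7.96 in hematogenous replicates 1 to 4, and the groups overlapped (edgeR adjusted p = 0.741 and 0.626 against tumor free). Spi1, the gene of PU.1, was at 2.92, 7.25, 3.37 and 2.3 CPM in tumor-free, 2.9, 3.55, 2.3 and 3.08 in lymphatic and 2.27, 5.7, 3.04 and 6.43 in hematogenous replicates, also overlapping (edgeR adjusted p = 0.842 and 0.899). Cebpa, which directs granulocyte and monocyte development, ranged over 0 to 3.41, 0.97 to 1.72 and 0 to 5.5 CPM and was not called. The 5 shared receptors and factors summed to 9.03 to 15.9 CPM in tumor-free, 13.7 to 18.4 in lymphatic and 23.5 to 37.1 in hematogenous libraries.

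Csf1r, the receptor for macrophage colony-stimulating factor on which monocytes and macrophages depend, was at 4.79, 1.78, 5.37 and 12.1 CPM in tumor-free, 5.64, 9.84, 9.55 and 12.1 in lymphatic and 11.2, 24.2, 16.2 and 27.3 in hematogenous replicates 1 to 4. Hematogenous replicates 2 to 4 lay above all other libraries, and replicate 1 lay within the range of both other groups. By edgeR, the log2 fold change was 1.72 (SE 0.44, adjusted p = 0.0116) for hematogenous against tumor free, 0.63 (SE 0.433, adjusted p = 0.598) for lymphatic against tumor free and 1.09 (SE 0.424, adjusted p = 0.124) between the models. The first of these was called, also with any single library left out.

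Promoter sequences are shown for 5 members that were higher in hematogenous than in tumor-free libraries and whose upstream bases hold the core letters of a PU.1 site. They come from RefSeq on build GRCm38.p6, which is not the build of the counts, and 35 of the 43 members had an entry. Each run is the 250 bases before the annotated start, 5′ to 3′ on the gene's strand, in lower case, with the PU.1 core GAGGAA (or its reverse complement) and the C/EBP core TTGCNNAA in capitals. They are Csf3r (chr4:126024409-126024658, plus strand), Csf2rb2 (chr15:78305722-78305971, minus strand), S100a8 (chr3:90668821-90669070, plus strand), the downstream of 2 starts of Clec4a3 (chr6:122952394-122952643, plus strand) and Cd68 (chr11:69666171-69666420, minus strand).
Csf3r: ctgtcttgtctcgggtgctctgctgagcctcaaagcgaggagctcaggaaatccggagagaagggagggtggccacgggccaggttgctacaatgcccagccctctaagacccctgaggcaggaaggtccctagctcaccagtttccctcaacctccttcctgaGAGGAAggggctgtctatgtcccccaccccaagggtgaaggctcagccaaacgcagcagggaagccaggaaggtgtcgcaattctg
Csf2rb2: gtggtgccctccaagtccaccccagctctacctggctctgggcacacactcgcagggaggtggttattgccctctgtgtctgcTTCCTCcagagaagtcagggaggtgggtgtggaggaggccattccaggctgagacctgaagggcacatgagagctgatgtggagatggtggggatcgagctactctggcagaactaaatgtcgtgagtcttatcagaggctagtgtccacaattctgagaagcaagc
S100a8: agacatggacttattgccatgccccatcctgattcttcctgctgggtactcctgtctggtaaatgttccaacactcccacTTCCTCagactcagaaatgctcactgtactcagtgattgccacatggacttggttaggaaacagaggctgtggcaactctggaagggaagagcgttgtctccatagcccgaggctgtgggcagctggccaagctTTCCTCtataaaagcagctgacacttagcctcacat
Clec4a3: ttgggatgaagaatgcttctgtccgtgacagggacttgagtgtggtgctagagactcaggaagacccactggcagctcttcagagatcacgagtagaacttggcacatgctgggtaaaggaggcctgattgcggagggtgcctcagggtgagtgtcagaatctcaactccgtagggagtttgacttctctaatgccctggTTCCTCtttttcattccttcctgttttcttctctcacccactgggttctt
Cd68: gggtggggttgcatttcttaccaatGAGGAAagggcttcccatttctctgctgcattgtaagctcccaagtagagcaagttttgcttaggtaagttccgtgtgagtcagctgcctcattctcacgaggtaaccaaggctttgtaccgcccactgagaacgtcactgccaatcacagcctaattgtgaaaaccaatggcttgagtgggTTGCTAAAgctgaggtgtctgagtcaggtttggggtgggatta

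GAGGAA occurred on either strand in 23.3% of 32851 promoters of the same length over all genes and in 20 of 41 member promoters, or 48.8%. By gene, it occurred in 5 of the 11 members with an entry that were higher in hematogenous than in tumor-free libraries, in 1 of the 4 that were lower (Apoe) and in 11 of the 20 others. The share was no higher among the members that rose than among the others. TTGCNNAA occurred in 9.56% of all promoters and in 6 of 41 member promoters, or 14.6%. It was present in 2 of the 11 members that were higher (Cd68 and S100a9), in 1 of the 4 lower ones (Cd209b) and in 3 of the 20 others. Given their letters, matches of these motifs cannot share bases. A match is a description of the sequence, not evidence that a factor binds there.

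Several monocyte and macrophage genes rose. Cd68, an endosomal glycoprotein of macrophages, was at 4.79, 5.77, 4.64 and 1.58 CPM in tumor-free, 13.6, 13.6, 10.1 and 13.7 in lymphatic and 10.4, 12.2, 10.3 and 15 in hematogenous replicates 1 to 4. Its means were 4.2 ± 1.81, 12.8 ± 1.75 and 12 ± 2.21 CPM (SD, n = 4), so both models lay wholly above tumor free and overlapped with each other. Its log2 fold change in edgeR was 1.60 (SE 0.361, adjusted p = 0.0164) for lymphatic and 1.51 (SE 0.362, adjusted p = 0.00791) for hematogenous against tumor free, and -0.09 (SE 0.344, adjusted p = 0.926) between the models. The lymphatic call was lost without any one of lymphatic replicate 1 (0.0572), 2 (0.063) and 4 (0.0798) and with the compared groups alone (0.0577). The hematogenous call was lost in no alternative.

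Clec4a3, a C-type lectin of monocytes, had no count in the tumor-free libraries and was at 0.85, 1.18, 1.59 and 1.9 CPM in lymphatic and 1.04, 9.08, 2.66 and 4.89 CPM in hematogenous replicates 1 to 4. It was at least 19.2-fold higher in lymphatic (edgeR adjusted p = 0.00994) and at least 76.4-fold higher in hematogenous libraries (edgeR adjusted p = 0.000803). Both models lay wholly above tumor free. With all libraries thinned to equal depth the lymphatic call was lost (edgeR adjusted p = 0.0824), as it was in voom (0.0593) and with the compared groups alone (0.0549). Cd14, a coreceptor for bacterial lipopolysaccharide, also had no tumor-free count and was at 0.449, 0.219, 0.412 and 0.253 CPM in lymphatic and 2.08, 0.707, 0.634 and 0.804 CPM in hematogenous replicates. It was at least 14.5-fold above the tumor-free floor in hematogenous libraries (edgeR adjusted p = 0.013) and at least 5.1-fold in lymphatic ones, which was not called (edgeR adjusted p = 0.134).

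Lrp1 and Mpeg1 were higher in the hematogenous model than in both other groups. Lrp1, an endocytic receptor, was at 2.57, 1.78, 2.39 and 0.72 CPM in tumor-free, 2.6, 3.69, 2.24 and 6.24 in lymphatic and 8.79, 23, 8.12 and 27.1 in hematogenous replicates 1 to 4. Every hematogenous library lay above every other library. Its edgeR log2 fold change was 3.14 (SE 0.533, adjusted p = 0.000713) against tumor free and 2.18 (SE 0.498, adjusted p = 0.01) against lymphatic, and both calls held in every alternative. Mpeg1, a pore-forming protein of phagocytes, was at 13, 7.55, 5.54 and 16.1 CPM in tumor-free, 14.2, 19.7, 8.25 and 18.1 in lymphatic and 13.4, 57.8, 34.4 and 61.7 in hematogenous replicates. Hematogenous replicate 1 lay within the range of the other groups, and replicates 2 to 4 lay above it. In edgeR its log2 fold change was 2.01 (SE 0.414, adjusted p = 0.00297) against tumor free, and 1.47 (SE 0.398, adjusted p = 0.0254) against lymphatic, a call lost without any one of lymphatic replicate 1 (0.0746), 2 (0.0635), 3 (0.0705) and 4 (0.0531), hematogenous replicate 2 (0.0671) and 4 (0.0739), and at equal depth (0.0735).

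Vcan and Adgre1 were low genes that rose in the hematogenous libraries. Vcan, a matrix proteoglycan made by classical monocytes, was at 0, 0, 1.07 and 0.72 CPM in tumor-free, 0.142, 0.0273, 0.295 and 0.464 in lymphatic and 2.74, 5.6, 3.61 and 13.1 in hematogenous replicates 1 to 4. All hematogenous libraries lay above all others. The edgeR log2 fold change was 3.68 (SE 1.09, adjusted p = 0.0252) against tumor free, a call lost without hematogenous replicate 4 (0.129), and 4.77 (SE 1.13, adjusted p = 0.0126) against lymphatic, lost without any one of lymphatic replicate 2 (0.0522), hematogenous replicate 4 (0.0699). Adgre1, the macrophage surface receptor recognized by the classical mouse macrophage antibody, was at 0.351, 0, 1.07 and 0 CPM in tumor-free, 2.01, 1.39, 0.295 and 2.49 in lymphatic and 5.58, 7.82, 5.07 and 4.82 in hematogenous replicates. Again every hematogenous library lay above all the others, with an edgeR log2 fold change of 3.80 (SE 0.979, adjusted p = 0.0122) against tumor free and 1.90 (SE 0.879, adjusted p = 0.21) against lymphatic, the latter not called.

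Among genes of resident macrophages, some moved the other way. Cd209b, a lectin with which sinus and marginal zone macrophages capture polysaccharides, was at 12.4, 14.1, 6.86 and 11.4 CPM in tumor-free, 4.39, 13.4, 3.48 and 0.169 in lymphatic and 0, 0.656, 0.19 and 0.0731 in hematogenous replicates 1 to 4. All hematogenous libraries lay below all tumor-free ones, and lymphatic replicate 4 lay within the hematogenous range. In edgeR the log2 fold change was -5.41 (SE 0.989, adjusted p = 0.00122) against tumor free, -4.37 (SE 0.954, adjusted p = 0.00771) against lymphatic and -1.05 (SE 0.784, adjusted p = 0.644) for lymphatic against tumor free, the last not called. Voom with quality weights did not call the difference between the models (adjusted p = 0.245). Marco, a scavenger receptor of the same macrophages, ranged over 1.52 to 2.66 CPM in tumor-free, 2.11 to 6.97 in lymphatic and 0 to 1.27 in hematogenous libraries and was not called (edgeR adjusted p = 0.195 and 0.0627 for hematogenous against tumor free and lymphatic).

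Pla2g2d, a secreted phospholipase of lymphoid tissue myeloid cells, was at 9.59, 7.84, 8.69 and 13.1 CPM in tumor-free, 4.11, 13.1, 9.61 and 3.46 in lymphatic and 0, 1.41, 2.6 and 1.24 in hematogenous replicates 1 to 4. The hematogenous libraries lay below all others. The edgeR log2 fold change was -2.86 (SE 0.687, adjusted p = 0.00793) against tumor free and -2.49 (SE 0.676, adjusted p = 0.0256) against lymphatic, the latter lost without any one of lymphatic replicate 2 (0.128) and 3 (0.0554), hematogenous replicate 2 (0.0578) and 4 (0.0608), and at equal depth (0.0653). Apoe, the lipid carrier made by many macrophages, was at 28.2, 30.9, 25.3 and 53.7 CPM in tumor-free, 11.9, 25.3, 17.7 and 16.3 in lymphatic and 13.5, 7.57, 10.2 and 13.7 in hematogenous replicates. All libraries of the models lay below the tumor-free ones, although lymphatic replicate 2 and tumor-free replicate 3 both round to 25.3 CPM. Its edgeR log2 fold change was -1.62 (SE 0.294, adjusted p = 0.00118) for hematogenous and -0.95 (SE 0.286, adjusted p = 0.0864) for lymphatic against tumor free, and only the former was called.

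Ctsd, the lysosomal protease cathepsin D, which most cells express, was the highest member per kilobase. It was at 694, 873, 792 and 804 CPM in tumor-free, 693, 736, 662 and 661 in lymphatic and 442, 517, 470.4 and 432 in hematogenous replicates 1 to 4. Hematogenous libraries lay below all others, with an edgeR log2 fold change of -0.76 (SE 0.11, adjusted p = 0.000185) against tumor free and -0.56 (SE 0.11, adjusted p = 0.00365) against lymphatic, and both calls held in every alternative. Spp1, the secreted protein osteopontin, was at 16.7, 7.55, 5.5 and 0.864 CPM in tumor-free, 17.1, 93.5, 45.8 and 13.4 in lymphatic and 1.23, 2.73, 5.58 and 8.84 in hematogenous replicates. It was highest in lymphatic replicates 2 and 3, and each lymphatic library lay above each hematogenous one. Its edgeR log2 difference was -3.20 (SE 0.833, adjusted p = 0.0327) for hematogenous against lymphatic, a call lost without any one of tumor-free replicate 2 (0.0591), lymphatic replicate 2 (0.0882) and 3 (0.0527), hematogenous replicate 1 (0.0896), 2 (0.0948) and 3 (0.101), with no filter on low counts (0.126) or in voom (0.162).

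**Figure D4:**
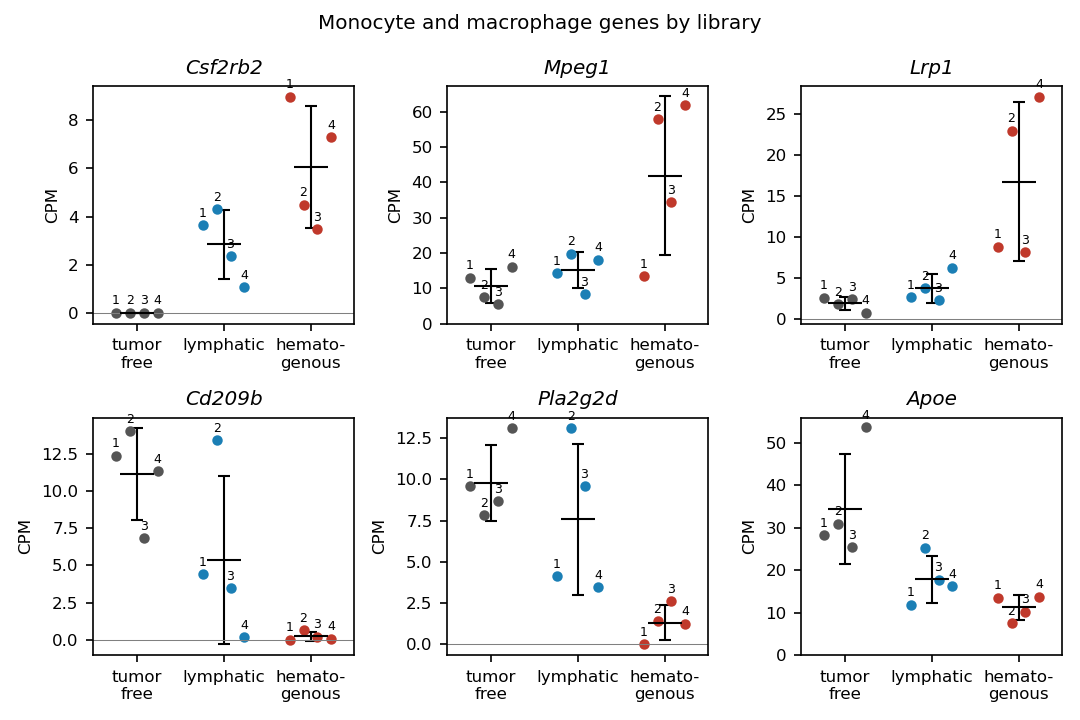
CPM (y axis, linear) of Csf2rb2, Mpeg1 and Lrp1 (top) and Cd209b, Pla2g2d and Apoe (bottom) in each library, with replicate numbers beside the points and bars for the mean and SD of 4 libraries. Csf2rb2 is 0 in tumor-free and above 0 in all other libraries, Lrp1 and Mpeg1 are highest in hematogenous replicates 2 and 4, and Cd209b and Pla2g2d are low in the hematogenous libraries, with lymphatic replicate 4 as low for Cd209b.

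Other macrophage and monocyte members did not pass the test. Lyz2, the lysozyme of granulocytes and macrophages, was at 122, 102, 62.4 and 95.1 CPM in tumor-free, 44.8, 112, 44.7 and 75 in lymphatic and 32.8, 122, 86 and 124 in hematogenous replicates 1 to 4. The groups overlapped, and the edgeR log2 fold change was -0.46 (SE 0.393, adjusted p = 0.699) for lymphatic and -0.06 (SE 0.393, adjusted p = 0.941) for hematogenous against tumor free. Ly6c2, which monocytes and some lymphocytes carry at the surface, was at 259.8, 165, 158 and 163 CPM in tumor-free, 210.0, 207, 179 and 197 in lymphatic and 255, 233, 220.1 and 223 in hematogenous replicates. Tumor-free replicate 1 lay above all other libraries, and no comparison was called (edgeR log2 fold change 0.32 (SE 0.143, adjusted p = 0.138) for hematogenous against tumor free). Clec7a, a receptor for fungal glucans, ranged over 0 to 1.87, 1.39 to 3.53 and 0 to 11.2 CPM, and Fcgr1, the high-affinity antibody receptor, over 0 to 2.07, 0.109 to 0.944 and 0 to 1.83 CPM. Clec7a was not called, and Fcgr1 was not tested.

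The complement genes C1qa, C1qb and C1qc, which encode the chains of C1q and are made together by tissue macrophages, showed no called difference. C1qa was at 0, 0.592, 1.36 and 10.2 CPM in tumor-free, 1.53, 2.71, 2.06 and 2.36 in lymphatic and 2.36, 0, 0.951 and 0.877 in hematogenous replicates 1 to 4. C1qb was at 5.26, 0, 2.73 and 3.17 CPM in tumor-free, 1.06, 4.62, 0.648 and 1.6 in lymphatic and 1.98, 0, 1.2 and 2.48 in hematogenous replicates. C1qc was at 7.37, 0, 2.04 and 2.45 CPM in tumor-free, 0.519, 1.72, 2.06 and 1.05 in lymphatic and 0, 0.303, 0 and 0.95 in hematogenous replicates. The groups overlapped for all 3 genes, and tumor-free replicate 4 was the highest library for C1qa alone. For hematogenous against tumor free the edgeR adjusted p was 0.434, 0.618 and 0.113, with log2 fold changes of -1.54, -0.99 and -3.21.

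Dendritic cell genes gave few calls. Itgax, an integrin chain that marks dendritic cells and is also carried by NK cells, was at 757, 929, 904 and 897 CPM in tumor-free, 1153, 1099, 1469 and 1106 in lymphatic and 993, 606, 663 and 539 in hematogenous replicates 1 to 4. The lymphatic libraries lay above all others, and hematogenous replicate 1 lay above its group and above the tumor-free range. The edgeR log2 fold change was -0.79 (SE 0.16, adjusted p = 0.00514) for hematogenous against lymphatic, held in every alternative, and 0.47 (SE 0.16, adjusted p = 0.147) and -0.32 (SE 0.16, adjusted p = 0.195) for lymphatic and hematogenous against tumor free. Neither of the latter was called.

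Flt3, a growth factor receptor of dendritic cells and early progenitors, was at 0, 0, 0.724 and 0 CPM in tumor-free, 1.23, 0.574, 2.24 and 0.97 in lymphatic and 3.02, 2.32, 1.59 and 4.38 in hematogenous replicates 1 to 4. All hematogenous libraries lay above the tumor-free ones and overlapped with the lymphatic range. The edgeR log2 fold change against tumor free was 3.60 (SE 1.19, adjusted p = 0.0439), near the threshold, and the call was lost without any one of tumor-free replicate 1 (0.0663), 2 (0.0659) and 4 (0.0655), lymphatic replicate 1 (0.063), 2 (0.054), 3 (0.0566) and 4 (0.0621), hematogenous replicate 1 (0.0647), 2 (0.0621), 3 (0.0649) and 4 (0.108), at equal depth (0.0787) and with the compared groups alone (0.0967). Tcf4, the factor that directs plasmacytoid dendritic cells and is also expressed by B cells, was at 46.3, 54.7, 73.7 and 42.2 CPM in tumor-free, 72.6, 73, 65.1 and 73.2 in lymphatic and 86.2, 88, 93 and 79 in hematogenous replicates. Every hematogenous library lay above every other, with an edgeR log2 fold change of 0.67 (SE 0.159, adjusted p = 0.00758) against tumor free, held in every alternative, and 0.38 (SE 0.158, adjusted p = 0.267) for lymphatic against tumor free.

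No defining gene of a dendritic subset was called besides Tcf4. Siglech, a surface lectin of plasmacytoid dendritic cells, was at 7.02, 1.33, 2.39 and 3.31 CPM in tumor-free, 1.3, 2.0, 0 and 0.0843 in lymphatic and 1.7, 2.62, 2.79 and 0.657 in hematogenous replicates 1 to 4, and was not called (edgeR log2 fold change -2.02 (SE 1.06, adjusted p = 0.427) for lymphatic and -0.85 (SE 1.03, adjusted p = 0.639) for hematogenous against tumor free). Zbtb46, a factor of conventional dendritic cells, was at 17.9, 11.5, 8.52 and 3.74 CPM in tumor-free, 10.6, 15.1, 12.6 and 10.9 in lymphatic and 8.7, 13.9, 15.2 and 18.4 in hematogenous replicates, with overlapping groups (edgeR adjusted p = 0.861 and 0.482 against tumor free). For the cross-presenting subset, the chemokine receptor gene Xcr1 stayed within 0 to 3.27, 0 to 0.685 and 0 to 0.292 CPM, the lectin gene Clec9a within 0 to 0, 0 to 1.13 and 0 to 1.14 CPM and the factor gene Batf3 within 0 to 1.36, 0.0589 to 0.756 and 0.757 to 2.84 CPM in the 3 groups. Xcr1 and Clec9a were too low to be tested, and Batf3 was not called.

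The libraries of the hematogenous group differed among themselves. Of the 16 members that rose against tumor free, 3 were highest in replicate 1 (among them Il1b and Csf2rb2), 4 in replicate 2, 3 in replicate 3 and 6 in replicate 4, while 8 were lowest in replicate 1, 6 in replicate 3 and 2 in replicate 4. The genes with no count in replicate 1 included S100a8 and S100a9, and those above the tumor-free range there included Il1b, Csf2rb, Csf2rb2 and Adgre1.

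Beyond the members, 5 wider lists of 72 myeloid genes were described, of which edgeR and voom tested 36 genes. DESeq2 ran without the filter on low counts, so its calls here and below can include genes outside those 36. Its numbers, those of voom and those at an unadjusted p cannot be set beside edgeR's shares, here and below. For lymphatic against tumor free edgeR called 0 of them, with 4 higher and 3 lower at an unadjusted p under 0.05; DESeq2 called 3 higher and 2 lower, and voom 0 higher and 1 lower. For hematogenous against tumor free edgeR called 5 higher and 2 lower, where 9.52% and 6.87% of all tested genes were called, a share of the 36 near that background. Voom called 4 higher and 3 lower. Over the 72 genes DESeq2 called 15 higher and 4 lower, with 7 of the higher ones on the neutrophil list, where edgeR tested 3 genes. Ccr2, the chemokine receptor that draws monocytes into tissue and is also carried by NK cells, was at 1125, 1360.3, 1212 and 1139 CPM in tumor-free, 1056, 993, 881 and 1256 in lymphatic and 641, 572, 628 and 521 in hematogenous replicates 1 to 4. The hematogenous libraries lay below all others, with an edgeR log2 fold change of -1.03 (SE 0.125, adjusted p = 6.37e-05) against tumor free and -0.83 (SE 0.125, adjusted p = 0.000724) against lymphatic. Ace, a peptidase gene of nonclassical monocytes, was at 0, 0, 0.383 and 0 CPM in tumor-free, 3.49, 1.23, 0 and 2.95 in lymphatic and 5.39, 13.9, 5.71 and 9.72 in hematogenous replicates (edgeR log2 fold change 5.82 (SE 1.17, adjusted p = 0.00241) against tumor free), and every hematogenous library lay above every other.

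Ms4a6c, a monocyte membrane protein, was at 4.68, 12.6, 13.7 and 13.2 CPM in tumor-free, 19.2, 22.6, 28.6 and 18.8 in lymphatic and 26.5, 33.3, 22.1 and 26.2 in hematogenous replicates 1 to 4, with an edgeR log2 fold change of 1.29 (SE 0.288, adjusted p = 0.00506) for hematogenous and 1.01 (SE 0.286, adjusted p = 0.0666) for lymphatic against tumor free. Both models lay above tumor free, and the lymphatic difference was not called. Between the models edgeR called 3 wider genes higher and 2 lower in hematogenous libraries, where 2.93% and 5.92% of all tested genes were called. DESeq2 called 5 higher and 1 lower, and voom 8 higher and 3 lower. Cx3cr1, the fractalkine receptor of nonclassical monocytes and some NK cells, was at 21.5, 34.6, 33.2 and 21.7 CPM in tumor-free, 16.6, 10.7, 19.98 and 16.4 in lymphatic and 29.7, 30.8, 32.8 and 31 in hematogenous replicates (edgeR log2 fold change 0.97 (SE 0.228, adjusted p = 0.0118) for hematogenous against lymphatic). F13a1, the coagulation factor made by monocytes, was at 1.4, 0, 1.96 and 0 CPM in tumor-free, 0.331, 0.929, 0.177 and 0.295 in lymphatic and 0, 9.54, 8.75 and 21.8 in hematogenous replicates (edgeR log2 fold change 4.48 (SE 1.2, adjusted p = 0.0242) for hematogenous against lymphatic), high in hematogenous replicates 2 to 4 and uncounted in replicate 1.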

How the data were processed

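Poly(A) RNA of 12 libraries was sequenced with single-end stranded reads, per the labels' protocols. The authors deposited raw read counts per gene and library. Build GRCm39 and the tools HISAT2 2.1.0, HTSeq 2.0.2, Trimmomatic 0.39 and FastQC 0.11.9 are named, with no settings, per the submitters' processing notes. Neither the annotation release nor HTSeq's strand option is given in the sources used here, so reads on members that overlap a gene on the opposite strand (7 of 43: Cebpa, Csf1r, Flt3, Il1b, Lrp1, Trem1 and Vcan) may not have been told apart. HTSeq's special rows were left out of library sizes: reads outside genes were 11.4% to 24.6%, ambiguous reads 1.55% to 2.12%, unaligned reads 5.51% to 14.6% and multiply aligned reads 3.85% to 6.48% of each file. Symbols were matched for 52073 of 56748 identifiers, which hold 99.5% of counts. No pair of libraries held identical counts.

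The main test was edgeR 4.0.16 (R 4.3.3): TMM scaling, the filter on low counts by group, a robust quasi-likelihood fit on all 12 libraries with 9 residual degrees of freedom (biological coefficient of variation 0.429), and Benjamini-Hochberg adjustment over 16016 genes at 0.05. CPM are TMM-scaled. Standard errors were derived from the F statistic and the fold change. The fit was also run on simulated counts with known changes in randomly chosen genes. Those counts did not model a gene absent from a whole group. A fold against a group with no counts is given against a floor of 3 counts over the group's libraries, with pooled library sizes. Alternatives were DESeq2 1.42.0 and its size factors, library size alone, no filter, limma 3.58.1 voom with quality weights, a replicate block, the compared groups alone, thinning to 6654215 counts, and each library left out.

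The members and the other gene lists were chosen with earlier results of these data known. All 43 members are accounted for. Values in every library are given for members called in at least 1 comparison, for the 3 highest of each role and for Lyz2, C1qa, C1qb, C1qc, S100a8, S100a9, Csf1r, Flt3, Siglech, Csf2rb and Csf2rb2. Of each wider list up to 3 called genes per comparison are named by smallest adjusted p, with Ncr1, Klrb1c, Cd79a and Cd3e as checks of the label. Klrb1c, a second NK receptor gene, averaged 1227 ± 119, 842 ± 85.1 and 856 ± 162 CPM in tumor-free, lymphatic and hematogenous libraries (SD, n = 4), the B cell gene Cd79a 10.1 ± 5.8, 21.3 ± 11.8 and 10.8 ± 3.48 CPM, and the T cell gene Cd3e 40.6 ± 24.7, 52.8 ± 12.4 and 101 ± 20.5 CPM. Summed over 7 plasma cell genes the levels were 124 to 160, 160 to 216 and 123 to 162 CPM, and over 10 genes of stroma and endothelium 117 to 130, 162 to 174 and 120 to 139 CPM. The wider lists of conventional (12 genes) and plasmacytoid (8 genes) dendritic cells summed to 36.7 to 43.5, 37.7 to 58.2 and 39.3 to 75.9 CPM, and to 10.9 to 33.0, 18.6 to 46.4 and 21.3 to 42.2 CPM, and that of macrophages and monocytes (24 genes) to 1203 to 1449, 954 to 1334 and 709 to 768 CPM. Ccr2 alone made up most of this last sum, averaging 1209, 1047 and 590 CPM beside list means of 1287, 1118 and 741 CPM. Of the 19 tested genes on that list, edgeR called 4 higher and 2 lower for hematogenous against tumor free, with Ccr2 among the lower. Over all tested genes 9.52% were called higher and 6.87% lower in that comparison.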

Additional observations from a re-analysis of the deposited data

Results flagged for a closer look

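The edgeR test of the difference between the models called 12 members, whose change from tumor-free nodes thus differed between the hematogenous and the lymphatic model. The log2 fold change, hematogenous against lymphatic, was 2.76 for Csf3r, 5.24 for S100a8, 5.50 for S100a9, 3.92 for Il1b, 4.77 for Vcan, 1.47 for Mpeg1 and 2.18 for Lrp1. It was -4.37 for Cd209b, -2.49 for Pla2g2d, -0.56 for Ctsd, -3.20 for Spp1 and -0.79 for Itgax. Their per-library values and the libraries on which each call rests stand in the report.

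Single libraries stood apart from the other 3 of their group in 14 of 105 member and group combinations with at least 20 counts. The rule was set for a chance rate of about 1 in 20 in normally distributed values, which low counts with many at 0 are not. For S100a9 and Batf3 in tumor-free and Fcgr1 in hematogenous libraries the other 3 were at 0, so any value above 0 stood apart. The number of 14 therefore cannot be compared with chance, and the libraries are listed as a description. Tumor-free replicate 3, the deepest of its group, was at 0.852 CPM for S100a9 and 1.36 CPM for Batf3 with 0 in the others, and at 3.41 CPM for Cebpa with at most 0.234 in the others. Tumor-free replicate 1 was at 259.8 CPM for Ly6c2 (the others at 158 to 165) and 3.27 CPM for Xcr1 (at most 0.256), and tumor-free replicate 4 was at 10.2 CPM for C1qa (at most 1.36).

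Lymphatic replicate 3 was lower than its group for Cd68 at 10.1 CPM (the others at 13.6 to 13.7), for Tcf4 at 65.1 CPM (72.6 to 73.2) and for Batf3 at 0.0589 CPM (0.717 to 0.756), and higher for Itgax at 1469 CPM (1099 to 1153). Hematogenous replicate 1 was above its group for Cd14 at 2.08 CPM (0.634 to 0.804) and Batf3 at 2.84 CPM (0.757 to 1.01), hematogenous replicate 3 for Retnlg at 5.77 CPM (at most 0.656) and hematogenous replicate 4 for Fcgr1 at 1.83 CPM with 0 in the others.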

How the results depend on the processing

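Of 36 member calls over the 3 comparisons, 20 passed in every alternative that gave a value. Over 714 combinations of call and alternative 611 kept the call, 103 kept only the direction, and 0 reversed it. The number of members called for lymphatic against tumor free was 4, and became 7 with no filter on low counts and 1 with the compared groups alone. All genes called there were 439 and became 891 with DESeq2, and the 1417 between the models became 2169 with DESeq2 and 2923 with voom. The cause was not tested. With any single library left out the genes called ranged over 255 to 634 (lymphatic against tumor free, the lowest without lymphatic replicate 4), 1760 to 3202 (hematogenous against tumor free) and 620 to 1572 (between the models), and the members called over 2 to 7, 17 to 23 and 4 to 12.

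Libraries with the same replicate number in the labels did not deviate together: correlations of their deviations from the group means ran from -0.0727 to 0.0589, and 2, 4 and 2 of 8 libraries correlated best with their own number in the 3 comparisons. With the replicate number as a block the genes called were 362, 2518 and 1439 and the members called 3, 20 and 9, in the same order. The block ended the calls of Csf2rb for lymphatic against tumor free (edgeR adjusted p = 0.0649) and, between the models, of Csf3r (0.0751), Il1b (0.0852) and Spp1 (0.163). Size factors of DESeq2 and library size alone gave the same member numbers of 4, 20 and 12. They moved the share of all calls that were higher from 84.7% to 75.5% and 73.2% for lymphatic against tumor free and from 33.1% to 47.4% and 55.8% between the models, and library size alone moved the median log2 fold change of all genes between the models by 0.106. A count of 0 in tumor-free replicates 1, 2 and 4 does not exclude a level under the 3-count floor of those libraries.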

Other observations

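Several genes of mast cells and basophils had their highest values in hematogenous libraries. A list of 11 genes of mast cells, basophils and eosinophils summed to 0 to 3.74 CPM in tumor-free, 1.39 to 5.81 in lymphatic and 6.87 to 50.7 in hematogenous libraries (50.7 in replicate 2 and at most 11.7 in the others), and 10 of the 11 had no count in any tumor-free library. Not every gene followed the sum: Mcpt4, a mast cell protease, was highest in lymphatic replicate 3 at 1.89 CPM, and the eosinophil gene Epx ranged over 0 to 0.354 CPM in lymphatic and 0 to 0.507 CPM in hematogenous libraries. These genes and those below are named after their values were seen. Ms4a2, a chain of the high-affinity IgE receptor, was at 0, 0, 0 and 0 CPM in tumor-free, 0.165, 0, 0 and 0.0422 in lymphatic and 3.69, 5.65, 3.04 and 0.146 in hematogenous replicates 1 to 4. Gata2, a transcription factor of mast cells, basophils and early progenitors, was at 0, 0, 0 and 0 CPM in tumor-free, 1.49, 0.383, 0.53 and 0 in lymphatic and 0.567, 7.32, 2.54 and 0.292 in hematogenous replicates. The basophil protease genes Mcpt8 and Prss34 were highest in hematogenous replicate 2, at 8.18 and 20.9 CPM, and Prss34 had no count elsewhere. None of these 6 genes passed the filter on low counts, so none was in the main test. Without the filter edgeR called Prss34 against tumor free (adjusted p = 5.2e-05), although hematogenous replicate 2 held all its counts. DESeq2, run without that filter, called 3 genes of the list higher in the same comparison. Cpa3, the 1 gene of the list in the main test, was not called (edgeR log2 fold change 1.73 (SE 0.869, adjusted p = 0.193) for hematogenous against tumor free).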
